A study of Mus musculus with 28 samples.

Results

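Macrophages sorted from the recovering mouse pancreas on day 3 after acute pancreatitis were compared between mice given lactate and mice given PBS (phosphate-buffered saline). The libraries were chosen by their group label alone and make up 8 of the 28 libraries of the series. The group D3 AP+Lac holds 4 libraries and the group D3 AP+PBS holds 4. All came from wild-type C57BL/6J mice in which caerulein had induced pancreatitis (AP in the group names), and the cells were isolated by fluorescence-activated cell sorting. The other libraries were the day 1 pair (D1 AP+Lac and D1 AP+PBS, 6 each), 5 from day 0 (D0) and 3 from a group labelled NC. The labels give no sex, age, lactate dose or sorting markers and do not say whether mice were pooled, so p-values measure the spread between these libraries only. The series title places the comparison in the question of whether lactate moves pancreatic macrophages towards a reparative state.

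Caerulein is an analogue of cholecystokinin that overstimulates the acinar cells, which make the digestive enzymes, until they injure themselves. Macrophages then clear debris and release inflammatory mediators, and during recovery they express more genes of the reparative or alternatively activated state. Lactate is the end product of glycolysis. It crosses membranes through monocarboxylate transporters, is converted to and from pyruvate by lactate dehydrogenase, can be sensed by G protein-coupled receptors and supplies the lactyl group of histone lactylation.

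The 8 libraries held 33273303 to 37866300 fragments each, and values were FPKM, the fragment count scaled to transcript length and library size. Macrophage markers were abundant in every library. The 16 macrophage markers summed to 8805 to 14345 FPKM in D3 AP+Lac and 7934 to 12205 FPKM in D3 AP+PBS, and Lyz2, which encodes lysozyme, averaged 7432 and 6208 FPKM in these groups and made up most of that sum. Markers of other cells were also present. In 2 of the 8 libraries, D3 AP+PBS 2 and D3 AP+PBS 3, acinar markers summed to more than macrophage markers (30599 against 7934 FPKM, and 9212 against 7970 FPKM). Values of the other lists that moved with the groups are given beside the results they touch. In such bulk libraries, fewer cells of a type and less RNA per cell cannot be told apart. No pair of libraries within a group agreed within sampling noise (chi-square per degree of freedom 58.7 to 203), so none was merged as a library deposited more than once.

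Few genes passed the test at day 3. Of 11960 genes tested with limma on log2(FPKM + 1), 45 passed a Benjamini-Hochberg adjusted p of 0.05 (0.376% of genes), 23 higher (0.192%) and 22 lower (0.184%) in D3 AP+Lac than in D3 AP+PBS. Among the higher genes were the mast cell genes Cpa3 and Fcer1a, and Xbp1, Pdia4, Edem1, Edem2 and Txndc11, which act in protein folding and quality control in the endoplasmic reticulum. Among the lower genes were the interferon-inducible Ifi27l2a, 5 genes of the killer cell lectin-like receptor family, and the non-coding transcripts Zfas1 and Mir17hg. All fold changes below are on the log2(FPKM + 1) scale, lactate minus PBS, which understates the change of low genes. They ran in size between 0.41 and 2.39 for the called genes, and the median over all genes tested was 0.02. At an unadjusted p under 0.05 there were 2144 genes (17.9%), 1070 higher (8.95%) and 1074 lower (8.98%), against which the counts at that level in the gene lists below are to be read.

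**Figure D1:**
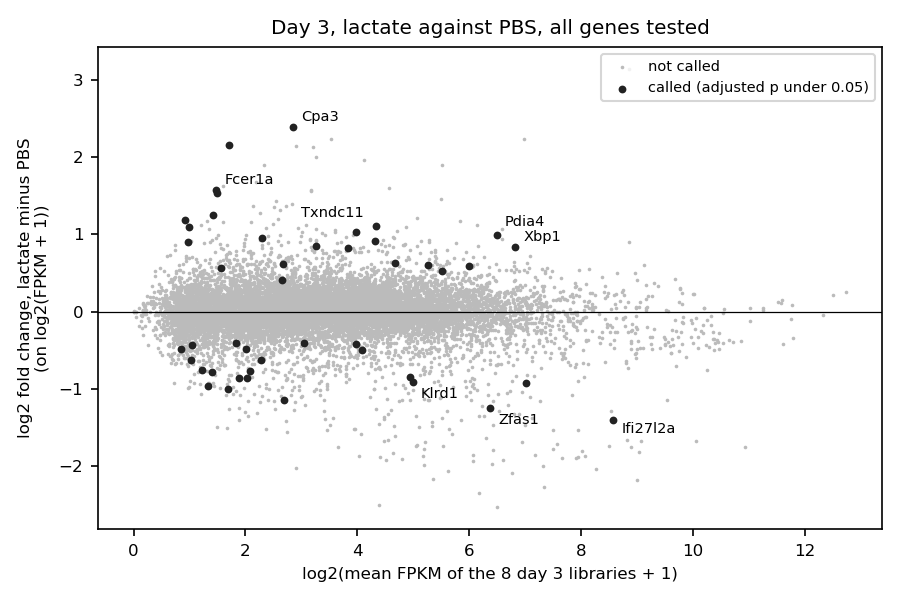
Log2 fold change at day 3 (lactate minus PBS, on log2(FPKM + 1)) against the mean level of the 8 day 3 libraries for 11960 genes, with the 45 called genes in black. The called genes lie on both sides of 0, and many uncalled genes lie as far from 0 as they do.

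The number of called genes rested on single libraries. Without D3 AP+Lac 1, 2, 3 or 4 in turn, 7, 5, 163 and 19 genes were called. Without D3 AP+PBS 1, 2, 3 or 4 in turn, 0, 5, 118 and 24 genes were called. The count of 0 without D3 AP+PBS 1 came from the same limma fit, in which 1692 genes had an unadjusted p under 0.05, so no called gene kept its call under every omission. D3 AP+Lac 3 stood nearest to the PBS libraries in 19 of the 23 higher genes and in 13 of the 22 lower genes. D3 AP+PBS 3 stood nearest to the lactate libraries in 13 of the 23 and in 11 of the 22. A limma fit of the 8 day 3 libraries alone, without the spread of the other groups, called 8 genes, none of them among the 45. In 38 of the 45 genes the values of the groups did not overlap. Of all 11960 genes tested, 399 had all lactate libraries above all PBS libraries and 518 had them all below. The 45 were called from these same libraries, which favours groups that do not overlap.

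Of 29 chaperone and stress genes of the endoplasmic reticulum, Xbp1, Pdia4 and Edem1 rose with lactate and 26 did not pass the test. These 3 calls were lost without D3 AP+PBS 1 and in the fit of the day 3 libraries alone. Xbp1, the transcription factor of the unfolded protein response that expands secretory capacity, had 148, 150, 102 and 177 FPKM in D3 AP+Lac, against 68.4, 79.2, 75.1 and 94.4 FPKM in D3 AP+PBS. All lactate libraries lay above all PBS libraries, with D3 AP+Lac 3 the lowest of its group (log2 fold change 0.84, SE 0.17, limma adjusted p = 0.027). Pdia4, a protein disulfide isomerase, had 115, 135, 87.6 and 139 FPKM with lactate and 52.2, 54.2, 58.9 and 68.5 FPKM with PBS. Its groups did not overlap either (log2 fold change 1.00, SE 0.21, limma adjusted p = 0.035). Edem1, which sends misfolded glycoproteins to degradation, had 74.4, 78.9, 62.7 and 88.3 FPKM with lactate, against 50.2, 45.6, 52.3 and 50.5 FPKM with PBS. The PBS values were tightly grouped and all lay below the lowest lactate value (log2 fold change 0.60, SE 0.10, limma adjusted p = 0.011). Its relative Edem2, which is not in that list, had 50.3, 46.7, 29.2 and 55.5 FPKM with lactate and 26.3, 30.0, 30.8 and 28.1 FPKM with PBS. Here D3 AP+Lac 3 fell within the PBS range (log2 fold change 0.60, SE 0.13, limma adjusted p = 0.035).

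Other called genes act in the endoplasmic reticulum or Golgi and were gathered after the calls were seen. Txndc11, a thioredoxin-domain protein of the endoplasmic reticulum, had 29.3, 25.8, 16.7 and 35.3 FPKM with lactate and 11.4, 10.1, 15.3 and 9.75 FPKM with PBS (log2 fold change 1.11, SE 0.24, limma adjusted p = 0.035). Ckap4, a membrane protein that anchors reticulum sheets to the cytoskeleton, had 22.4, 20.8, 11.9 and 25.7 FPKM with lactate, against 6.96, 8.71, 12.2 and 8.84 FPKM with PBS (1.03, SE 0.20, limma adjusted p = 0.021). Fut8, the Golgi enzyme of core fucosylation, had 19.0, 18.8, 11.2 and 20.04 FPKM with lactate and 9.16, 8.86, 10.0 and 8.47 FPKM with PBS (0.82, SE 0.13, limma adjusted p = 0.011). In all 3 genes D3 AP+Lac 3 was the lowest lactate library and D3 AP+PBS 3 the highest PBS library, and for Ckap4 these values crossed. Tmem214, a membrane protein of the reticulum, averaged 30.0 ± 4.68 FPKM with lactate and 18.9 ± 1.62 FPKM with PBS (SD, n = 4 each; 0.63, SE 0.13, limma adjusted p = 0.034). C2cd2l, a lipid-transfer protein at contacts between the reticulum and the plasma membrane, averaged 11.4 ± 3.21 and 5.79 ± 1.29 FPKM (SD, n = 4 each), with D3 AP+Lac 3 inside the PBS range (0.85, SE 0.18, limma adjusted p = 0.034).

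**Figure D2:**
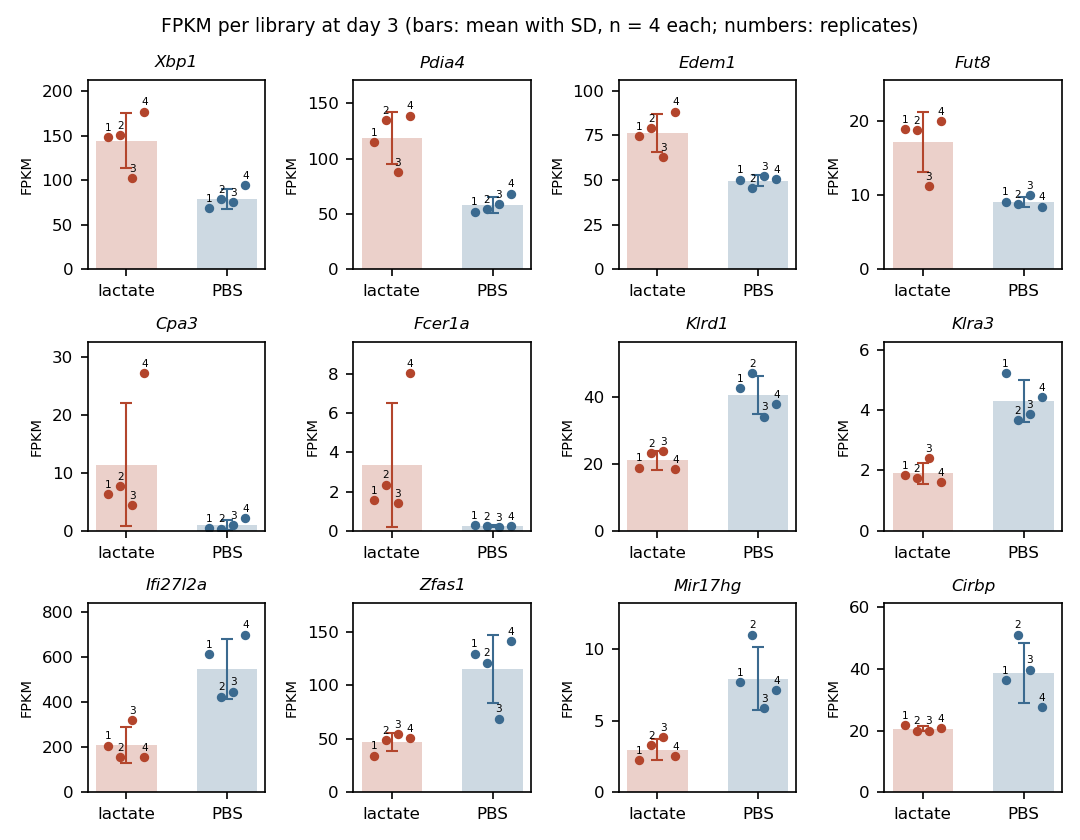
FPKM of 12 called genes in each day 3 library, lactate left and PBS right. Bars are means with SD (n = 4 each), and the numbers are replicates. Xbp1 lies at 102 to 177 FPKM with lactate and 68.4 to 94.4 FPKM with PBS, while Zfas1 lies at 34.3 to 54.3 FPKM with lactate and 68.9 to 142 FPKM with PBS.

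The list of 29 chaperone and stress genes of the endoplasmic reticulum held no gene called lower. Its median log2 fold change was 0.41, against 0.02 over all genes tested, with 25 members above 0 and 4 below. At an unadjusted p under 0.05, 20 members were higher and 1 was lower. Summed over the list, the level was 3490 to 3971 FPKM with lactate and 2358 to 3112 FPKM with PBS. The chaperone Hsp90b1 had 511, 678, 488 and 717 FPKM with lactate and 288, 297, 283 and 412 FPKM with PBS, but its limma adjusted p was 0.062 (log2 fold change 0.90). Creld2, a secreted chaperone-like protein, had 69.2, 90.9, 54.4 and 96.9 FPKM with lactate and 27.5, 33.2, 31.6 and 42.0 FPKM with PBS (1.17, limma adjusted p = 0.087). Neither gene's groups overlapped. Ddit3, the transcription factor of the branch that promotes cell death, had 4.84, 8.004, 7.003 and 6.42 FPKM with lactate, against 12.1, 10.7, 9.31 and 13.2 FPKM with PBS. Its value was -0.71 and its limma adjusted p 0.087, so the list did not have a single direction. The sensor Atf6 was at 0.41 (limma adjusted p = 0.056). The number of list members called went to 12 with quantile normalization and to 9 with an acinar marker covariate. It was between 0 and 5 as single libraries were left out, 0 without D3 AP+PBS 1, 1 without D3 AP+Lac 1, 2 or 4 or D3 AP+PBS 2, 4 without D3 AP+PBS 3 and 5 without D3 AP+Lac 3.

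Promoter sequences of 3 list members are shown because they hold a response element known for this pathway. The motif named ERSE (the endoplasmic reticulum stress element) was searched on both strands of the 250 bases before each gene's start, from RefSeq on build GRCm38.p6. It was present in 8 of the 26 list members with a promoter entry (30.8%) and in 0.156% of the tested genes with one. The 3 members with the smallest p among those 8 were Hsp90b1 (chr10:86705513-86705571, minus strand), Creld2 (chr15:88819500-88819558, plus strand) and Calr, a lectin chaperone (chr8:84847055-84847113, minus strand). The windows run 5′ to 3′ on the gene's strand, and capitals mark the motif, which lies on the opposite strand in each.
Hsp90b1: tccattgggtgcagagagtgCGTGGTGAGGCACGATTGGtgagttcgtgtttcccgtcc
Creld2: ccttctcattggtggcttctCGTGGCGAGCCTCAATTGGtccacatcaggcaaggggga
Calr: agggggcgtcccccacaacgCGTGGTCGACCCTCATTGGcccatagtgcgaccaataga
Calr had a log2 fold change of 0.51 (limma adjusted p = 0.10). The unfolded protein response element (UPRE, TGACGTGG), which XBP1 binds, was in 1 of the 19 called higher genes with an entry (5.26%) and in 0.894% of the tested genes, and in 0 of the 26 list members. That gene was Txndc11 (chr16:11134607-11134654, minus strand), with the motif in capitals.
Txndc11: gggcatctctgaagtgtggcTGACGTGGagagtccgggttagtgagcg
The ERSE was in 0 of the 19 called higher genes with an entry. These matches describe letters only.

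Of the plasma cell markers tested, Xbp1 was called and the other 7 had values above 0 that did not pass the test. Plasma cells are antibody-secreting cells in which Xbp1 is a defining factor and whose endoplasmic reticulum is enlarged. Jchain, the joining chain of polymeric antibodies, had 609, 1264, 331 and 1039 FPKM with lactate, against 41.0, 164, 196 and 31.1 FPKM with PBS. Mzb1, a chaperone of antibody assembly, had 190, 248, 74.4 and 328 FPKM with lactate and 27.1, 56.4, 52.3 and 26.4 FPKM with PBS. D3 AP+Lac 3 was the lowest lactate library for both and no group overlapped, yet neither gene passed the test (log2 fold changes 3.14 and 2.24, limma adjusted p = 0.13 and 0.14). Sdc1, the surface syndecan of plasma cells, had 12.5, 14.2, 6.13 and 17.2 FPKM with lactate and 2.69, 5.06, 4.96 and 1.59 FPKM with PBS (1.57, limma adjusted p = 0.097). Jchain and Mzb1 were singled out after their values were seen.

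Of the 14 plasma cell markers, 8 were in the table and all 8 were tested. Xbp1 was the only called member, all 8 lay above 0 and their median was 1.26. The list summed to 546 to 1743 FPKM with lactate and 165 to 373 FPKM with PBS. The 13 tested B cell markers, in contrast, summed to 540 to 1364 FPKM with lactate and 651 to 956 FPKM with PBS, with 0 called by limma and 0 at an unadjusted p under 0.05. In a fit that added the mean level of the plasma cell markers other than Xbp1 as a covariate, Xbp1 had a log2 fold change of 0.50 (limma adjusted p = 0.061), Pdia4 0.50 (0.086), Txndc11 0.43 (0.055) and Edem2 0.36 (0.078). Edem1 kept 0.54 (0.012), Fut8 0.58 (0.016) and Ckap4 0.65 (0.041). This covariate was added after the values were seen. It still held Mzb1, a chaperone, and Derl3, whose promoter carries the ERSE, so it was not free of endoplasmic reticulum genes.

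The mast cell genes Cpa3 and Fcer1a rose with lactate. Cpa3, the carboxypeptidase of mast cell granules, had 6.31, 7.74, 4.42 and 27.3 FPKM with lactate, against 0.446, 0.400, 0.975 and 2.22 FPKM with PBS (log2 fold change 2.39, SE 0.42, limma adjusted p = 0.014). This was the largest fold change among the called genes on log2(FPKM + 1), while with a pseudocount of 0.1 it was 3.29 and that of Gm5535 was 4.49. Fcer1a, the IgE-binding chain of the high-affinity IgE receptor, had 1.56, 2.35, 1.40 and 8.03 FPKM with lactate and 0.291, 0.235, 0.189 and 0.234 FPKM with PBS (1.58, SE 0.32, limma adjusted p = 0.026). D3 AP+Lac 4 was the highest library for both genes, and the groups did not overlap. The proteases Tpsb2 and Mcpt4 had log2 fold changes of 1.90 and 2.15 (limma adjusted p = 0.056 and 0.058). Mcpt4 was at 7.47, 9.22, 4.91 and 23.1 FPKM with lactate, and at 0.577, 0.762, 0.926 and 4.98 FPKM with PBS, where D3 AP+PBS 4 lay just above the lowest lactate value. Of 13 mast cell and basophil markers, 7 passed the filter on low values and 2 of them were called higher (0.192% of all genes were). The filter asked for 1 FPKM, which at day 3 Fcer1a reached only with lactate, so it can admit genes through the group where they are high. Kit, the stem cell factor receptor, was at 9.25 ± 3.01 and 8.04 ± 0.66 FPKM (SD, n = 4 each). The list summed to 28.5 to 108 FPKM with lactate and 14.2 to 25.3 FPKM with PBS, against macrophage markers of 8805 to 14345 FPKM with lactate. The number called was 0 with voom, 5 without D3 AP+Lac 3, 1 without D3 AP+Lac 2 or 4 and 0 without D3 AP+PBS 1 or 2.

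**Figure D3:**
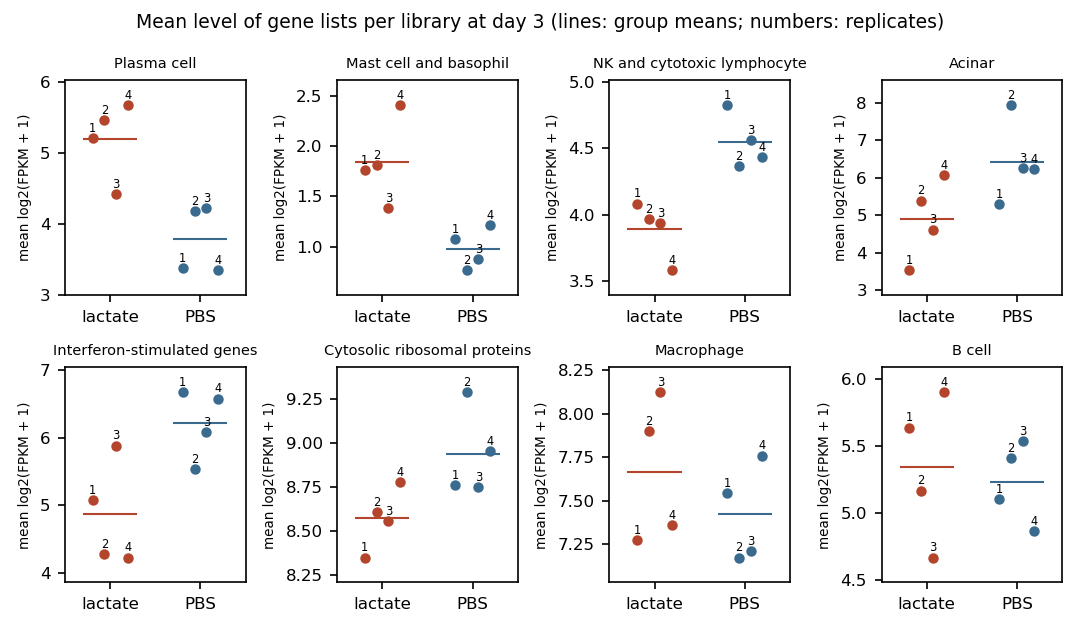
Mean log2(FPKM + 1) of 8 gene lists in each day 3 library, lactate left and PBS right; lines are group means and numbers are replicates. Plasma cell and mast cell markers are higher in all 4 lactate libraries than in the 4 PBS libraries, NK markers lower, and macrophage and B cell markers overlap.

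Of 23 tested genes of the killer cell lectin-like receptor family, which on natural killer (NK) cells read MHC class I and related ligands, 5 fell with lactate. Klrd1, which encodes CD94 and pairs with NKG2 chains, had 18.9, 23.2, 23.7 and 18.3 FPKM in D3 AP+Lac, against 42.5, 47.0, 34.0 and 37.8 FPKM in D3 AP+PBS (log2 fold change -0.91, SE 0.20, limma adjusted p = 0.039). Klra3 had 1.85, 1.75, 2.42 and 1.62 FPKM with lactate and 5.22, 3.66, 3.86 and 4.43 FPKM with PBS (-0.86, SE 0.17, limma adjusted p = 0.023). The groups were apart for both genes. Klra17, Klra1 and Klra6 were also called, at -0.86, -0.78 and -0.75 (limma adjusted p = 0.041, 0.040 and 0.047), all with group means under 4 FPKM. The Klra genes encode Ly49 receptors, and many of them are closely similar copies. Reads can be shared between such copies, so the value of each is uncertain.

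Across the family, 23 of 27 genes in the table were tested, 5 were called (0.184% of all genes were called lower) and all 23 log2 fold changes lay below 0, with a median of -0.68. Klra2 averaged 33.2 and 36.7 FPKM (-0.18, limma adjusted p = 0.88) and Klrg1 3.61 and 3.93 FPKM (-0.13, limma adjusted p = 0.82). This family was gathered after the called genes were seen. The 15 NK and cytotoxic lymphocyte markers, which share genes with it, held 1 called member, Klrd1, and their median was -0.75 with 14 below 0. The number called was 2 without D3 AP+Lac 3 or D3 AP+PBS 3 and 0 when any other library was left out. They summed to 344 to 485 FPKM with lactate and 688 to 932 FPKM with PBS. Gzma, a granule protease, had 57.4, 72.7, 70.3 and 46.3 FPKM with lactate, against 218, 126, 117 and 176 FPKM with PBS, and did not pass the test (-1.33, limma adjusted p = 0.14). Gzmb, another granule protease, was level at 40.5 ± 15.2 and 40.9 ± 13.6 FPKM (SD, n = 4 each). With a covariate for T and NK markers, Klrd1 was at -0.74 (limma adjusted p = 0.061) and Klra3 at -0.77 (0.042). T cell markers held 0 called of 16 tested by limma (1 at an unadjusted p under 0.05), with a median of -0.16.

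Interferon-stimulated genes had lower values with lactate, but 1 interferon-inducible gene passed the test. Ifi27l2a, an interferon-inducible mitochondrial protein, had 208, 157, 321 and 155 FPKM in D3 AP+Lac, against 614, 425, 448 and 701 FPKM in D3 AP+PBS. The groups did not overlap, with D3 AP+Lac 3 nearest to the PBS values (log2 fold change -1.41, SE 0.28, limma adjusted p = 0.026). It is not in the list of 34 tested interferon-stimulated genes, of which 0 were called by limma and 28 had an unadjusted p under 0.05, all lower (8.98% over all genes). Their log2 fold changes lay between -2.502 and -0.58 with a median of -1.16. Isg15, a ubiquitin-like modifier, had 55.2, 26.2, 144 and 28.3 FPKM with lactate and 319, 147, 193 and 375 FPKM with PBS (-2.26, limma adjusted p = 0.14). Irf7, the transcription factor that amplifies type I interferon, had 149, 58.8, 203 and 69.3 FPKM with lactate and 528, 199, 414 and 519 FPKM with PBS (-1.87, limma adjusted p = 0.15). For Irf7, D3 AP+Lac 3 lay above D3 AP+PBS 2.

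The list summed to 863 to 2719 FPKM with lactate and 2031 to 4434 FPKM with PBS, so these ranges overlapped. The smallest limma adjusted p in the list was 0.11 (Xaf1). Usp18, which removes Isg15 from proteins, and Irf9, a subunit of the interferon response factor complex, were at -1.94 and -0.61 (limma adjusted p = 0.12 for both). All 34 were called lower when the acinar marker level was a covariate, 2 were called without D3 AP+Lac 3, and with the plasma cell covariate the median was -0.0047 and 0 were called by limma (0 at an unadjusted p under 0.05). Of 19 MHC class I presentation genes 0 were called, 6 had an unadjusted p under 0.05 and the median was -0.30. H2-K1, a classical class I heavy chain, averaged 1277 ± 90.3 FPKM with lactate and 1693 ± 193 FPKM with PBS (SD, n = 4 each; -0.40, limma adjusted p = 0.25).

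Promoters of this list carried the interferon-stimulated response element. The motif named ISRE was searched on both strands of the same 250 bases. It was found in 13 of 28 list members with an entry (46.4%), in 3.57% of tested genes with one and in none of the 18 called lower genes with one. Ifit3b, Ifi213 and Bst2, a tetherin that holds virions at the surface, were the members with the smallest p among the 13. The windows are chr19:34607749-34607832 (plus strand), chr1:173599316-173599365 (minus strand) and chr8:71537567-71537622 (minus strand) in GRCm38.p6, with the motifs in capitals. They lie on the opposite strand in Ifit3b and overlap in Bst2.
Ifit3b: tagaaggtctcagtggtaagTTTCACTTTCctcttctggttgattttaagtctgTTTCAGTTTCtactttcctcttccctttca
Ifi213: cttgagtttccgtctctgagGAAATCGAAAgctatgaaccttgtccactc
Bst2: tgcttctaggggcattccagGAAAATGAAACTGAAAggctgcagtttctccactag
Their log2 fold changes were -2.502, -1.74 and -1.08, with limma adjusted p = 0.13, 0.13 and 0.14.

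Non-coding transcripts made up 9 of the 45 called genes. Of the 25301 genes in the deposited data, before the filter, 18017 were labelled protein-coding. The share among the genes tested was not computed, so whether the 9 are an excess of non-coding transcripts was not tested. Zfas1, a host transcript of small nucleolar RNAs, had 34.3, 48.7, 54.3 and 51.1 FPKM in D3 AP+Lac, against 130, 121, 68.9 and 142 FPKM in D3 AP+PBS (log2 fold change -1.24, SE 0.21, limma adjusted p = 0.011). D3 AP+PBS 3 was the lowest PBS library but lay above all lactate libraries. The Riken transcript 2410006H16Rik had 62.6, 92.8, 90.6 and 108 FPKM with lactate and 183, 200, 116 and 177 FPKM with PBS (-0.93, SE 0.19, limma adjusted p = 0.034). Strand handling is not given in the sources used here, so reads of these transcripts and of overlapping antisense genes cannot be told apart. Of 17 tested host genes of small nucleolar RNAs, a list gathered after Zfas1 was seen, 1 was called and all 17 lay below 0, with a median of -0.72. Gas5, a growth-arrest transcript of this kind, had 137, 162, 177 and 201 FPKM with lactate and 302, 424, 257 and 297 FPKM with PBS (-0.90, limma adjusted p = 0.064).

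Cytosolic ribosomal protein genes are shown beside them because both kinds of transcript belong to ribosome production. Of 83 tested, 0 were called by limma, 50 had an unadjusted p under 0.05, all lower, and 82 lay below 0 with a median of -0.39. The summed level of all 85 in the deposited data was 43321 to 58303 FPKM with lactate and 56650 to 82722 FPKM with PBS. Rps24 had 268, 368, 357 and 373 FPKM with lactate, against 510, 710, 412 and 552 FPKM with PBS (-0.66, limma adjusted p = 0.082). The groups were apart for Rps24 and overlapped for the sum of the list. The highest sum was in D3 AP+PBS 2, the library with the highest acinar markers. With the acinar marker covariate the median was -0.15, and with the plasma cell covariate it was -0.65 with 57 called lower.

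Mir17hg, the host transcript of the miR-17-92 cluster of microRNAs, had 2.27, 3.28, 3.85 and 2.54 FPKM in D3 AP+Lac, against 7.70, 10.98, 5.84 and 7.10 FPKM in D3 AP+PBS. The groups were apart (log2 fold change -1.15, SE 0.22, limma adjusted p = 0.021). The mature microRNAs themselves were not measured. Their sequences from RefSeq (GRCm38.p6, chromosome 14, plus strand) are shown because the host transcript carries all of them, with the seed (bases 2 to 8) in capitals, 5′ to 3′.
mmu-miR-17-5p: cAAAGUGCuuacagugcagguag
mmu-miR-20a-5p: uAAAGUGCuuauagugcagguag
mmu-miR-18a-5p: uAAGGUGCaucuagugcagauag
mmu-miR-19a-3p: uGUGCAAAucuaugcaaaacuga
mmu-miR-19b-3p: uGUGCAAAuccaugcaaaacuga
mmu-miR-92a-3p: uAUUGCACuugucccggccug
The mature forms lie between chr14:115043684-115043706 and chr14:115044476-115044496. miR-17-5p and miR-20a-5p share the seed AAAGUGC, and miR-19a-3p and miR-19b-3p share GUGCAAA, while miR-18a-5p and miR-92a-3p each have a seed of their own.

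Among the other called protein-coding genes, S1pr2, Gys1 and Pon3 are in no list and Tirap is in 1. S1pr2, a receptor for sphingosine 1-phosphate, had 30.9, 22.0, 19.5 and 27.1 FPKM with lactate, against 10.9, 11.7, 16.1 and 12.2 FPKM with PBS (log2 fold change 0.91, SE 0.18, limma adjusted p = 0.027). Gys1, the glycogen synthase of muscle and other tissues, had 7.33, 6.16, 6.64 and 6.79 FPKM with lactate and 4.54, 4.16, 4.26 and 3.26 FPKM with PBS (0.62, SE 0.13, limma adjusted p = 0.035). The groups were apart for both. Pon3, a lactonase, had 3.90, 7.52, 4.96 and 5.84 FPKM with lactate and 2.02, 2.68, 2.20 and 2.36 FPKM with PBS (0.96, SE 0.17, limma adjusted p = 0.014). Tirap, the adaptor that brings MyD88 to Toll-like receptors, had 6.39, 6.19, 6.59 and 5.59 FPKM with lactate and 4.63, 3.70, 5.12 and 4.22 FPKM with PBS, without overlap (0.41, SE 0.09, limma adjusted p = 0.045). It was the only called gene among 23 Toll-like receptors and adaptors, whose median was 0.07.

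Cirbp, a cold-inducible RNA-binding protein, was lower with lactate. It had 21.7, 20.01, 20.01 and 20.9 FPKM in D3 AP+Lac, against 36.3, 51.1, 39.7 and 27.5 FPKM in D3 AP+PBS (log2 fold change -0.84, SE 0.18, limma adjusted p = 0.035). The lactate libraries were nearly level, and the PBS libraries were all higher and more spread. Cd209c, of the DC-SIGN lectin family, averaged 1.16 ± 0.72 FPKM with lactate and 3.25 ± 1.07 FPKM with PBS (SD, n = 4 each; -1.01, limma adjusted p = 0.023), and reads can be shared between Cd209 copies. Tafazzin, which remodels the mitochondrial lipid cardiolipin, averaged 12.5 ± 0.40 and 17.1 ± 2.29 FPKM (SD, n = 4 each; -0.41, limma adjusted p = 0.035). Poglut1, a glucosyltransferase that modifies Notch, averaged 13.02 ± 0.79 and 18.8 ± 1.98 FPKM (SD, n = 4 each; -0.50, limma adjusted p = 0.047). Each of these 3 genes had all lactate libraries below all PBS libraries.

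The remaining called genes complete the 45 and, except for Wdr53, were chosen after their values were seen. Higher with lactate were Gm5535 (log2 fold change 2.15), Gm54321 (1.53), Oosp1 (1.25), 4933404K13Rik (1.182), Gm16350 (1.09), 5830418P13Rik (0.90), Zfp324 (0.57) and Bltp2 (0.52). Gm5535 was at 6.14, 2.53, 1.28 and 7.79 FPKM with lactate, against 0.0172, 0.108, 0.0956 and 0.0461 FPKM with PBS, and had one of the smallest limma adjusted p (0.011). Lower with lactate were Gm33104 (-0.96), Kctd14 (-0.77), Rhebl1 (-0.62), Ptchd1 (-0.62), Ift25 (-0.48), Spata1 (-0.48), Cep70 (-0.43), Wdr53 (-0.41) and Tmem150b (-0.41). Of all 45 genes, 21 had a mean under 5 FPKM in both groups, where a fold change on log2(FPKM + 1) is most compressed.

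Genes of the reparative state, the subject of the series, gave 0 called of 26 tested, with 12 log2 fold changes above 0 and 14 below and a median of -0.05. By limma, 6 of them had an unadjusted p under 0.05, 2 higher and 4 lower, where 17.9% of all genes did. Arg1, the arginase of alternatively activated macrophages, had 100.5, 69.2, 120 and 4.88 FPKM in D3 AP+Lac, against 30.2, 5.58, 4.93 and 20.4 FPKM in D3 AP+PBS. D3 AP+Lac 1, 2 and 3 lay above every PBS library and D3 AP+Lac 4 lay below them all (log2 fold change 1.90, 95% interval 0.35 to 3.45, limma adjusted p = 0.19). Without D3 AP+Lac 4 the value was 2.91 (limma adjusted p = 0.055). Retnla, a secreted protein induced by interleukin 4, had 118, 189, 234 and 124 FPKM with lactate and 304, 356, 96.8 and 462 FPKM with PBS (-0.72, 95% interval -1.496 to 0.05, limma adjusted p = 0.31). The groups overlapped through D3 AP+PBS 3.

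Mrc1, Chil3 and Il10 overlapped between the groups. Mrc1, the mannose receptor, had 84.5, 172, 202 and 107 FPKM with lactate, against 96.0, 90.6, 82.5 and 99.2 FPKM with PBS (0.53, 95% interval -0.12 to 1.180, limma adjusted p = 0.37). Chil3, a chitinase-like protein, averaged 85.7 ± 52.3 and 82.5 ± 42.3 FPKM (SD, n = 4 each; -0.01, 95% interval -0.79 to 0.77). Il10, the anti-inflammatory cytokine, averaged 7.75 ± 5.07 and 5.38 ± 1.13 FPKM (SD, n = 4 each; 0.26, 95% interval -0.51 to 1.04). The chemokines Ccl22 and Ccl17, which attract T cells through Ccr4, were at -1.74 (95% interval -2.88 to -0.60) and -1.25 (95% interval -2.04 to -0.47), with limma adjusted p = 0.12 and 0.11. Ccl22 was lower in all 4 lactate libraries than in any PBS library. The growth factors Tgfb1, Igf1 and Vegfa were at 0.13 (95% interval -0.10 to 0.35), 0.25 (-0.36 to 0.86) and 0.16 (-0.44 to 0.76). The intervals of Mrc1, Chil3, Il10 and the growth factors span changes of either sign and do not show equal levels.

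Inflammatory cytokines and chemokines gave 0 called of 31 tested, with a median of -0.15 and 3 members with an unadjusted p under 0.05, all lower. Tnf averaged 17.3 ± 6.88 FPKM with lactate and 21.3 ± 2.87 FPKM with PBS (SD, n = 4 each; log2 fold change -0.35, 95% interval -1.03 to 0.33). Il1b had 193, 258, 221 and 94.4 FPKM with lactate, against 128, 216, 207 and 182 FPKM with PBS (0.00, 95% interval -0.81 to 0.81). Nos2, the inducible nitric oxide synthase, was at 3.38, 0.251, 20.05 and 0.0926 FPKM with lactate and 0.993, 0.0251, 0.207 and 1.08 FPKM with PBS, with D3 AP+Lac 3 far above the others (1.15, limma adjusted p = 0.35). Il12b, a cytokine subunit, was at -1.01 (limma adjusted p = 0.12).

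Macrophage identity genes were not called either. The 29 resident macrophage genes had a median of 0.23 with 26 above 0, 3 at an unadjusted p under 0.05 and 0 called by limma. Stab1, a scavenger receptor, had 49.9, 113, 117 and 85.9 FPKM in D3 AP+Lac, against 54.0, 42.3, 59.0 and 38.2 FPKM in D3 AP+PBS (log2 fold change 0.85, limma adjusted p = 0.19). Adgre1, which encodes F4/80, had 116, 262, 269 and 202 FPKM with lactate and 157, 114, 122 and 175 FPKM with PBS (0.52, limma adjusted p = 0.26). Csf1r, the receptor for colony-stimulating factor 1, had 296, 444, 452 and 332 FPKM with lactate and 296, 221, 299.9 and 285 FPKM with PBS (0.45, limma adjusted p = 0.21). In all 3 genes D3 AP+Lac 1 lay within the PBS range and D3 AP+Lac 2 and 3 lay above it. Timd4 and Lyve1, which mark long-lived resident cells, were at 0.01 and 0.23. Spp1, Trem2 and Gpnmb, which mark lipid-associated macrophages, were at -0.51, 0.08 and -0.16, and the 26 genes of that list had a median of -0.13, with 0 called by limma and 0 at an unadjusted p under 0.05. Of 20 complement genes and 45 lysosomal genes 0 were called by limma, with 4 and 5 at an unadjusted p under 0.05 and medians of 0.29 and 0.08.

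Genes of lactate transport, conversion and sensing did not pass the test, with 0 called of 18 tested by limma, 4 at an unadjusted p under 0.05 and a median of 0.01. Slc16a3, the monocarboxylate transporter that exports lactate, had 18.8, 17.0, 22.9 and 6.83 FPKM in D3 AP+Lac, against 6.89, 5.24, 8.88 and 10.3 FPKM in D3 AP+PBS (log2 fold change 0.90, 95% interval 0.26 to 1.54, limma adjusted p = 0.15). D3 AP+Lac 1, 2 and 3 lay above the PBS range, and D3 AP+Lac 4 within it. Slc16a1, the transporter that mediates uptake in many cells, averaged 8.22 ± 2.59 and 7.26 ± 1.80 FPKM (SD, n = 4 each; 0.14). Hcar1, a lactate receptor, was at most 0.068 FPKM in any of the 8 libraries and was not tested. Gpr132, a receptor of acidic and lactate-rich surroundings, was at -0.43 and Mpc1, a subunit of the mitochondrial pyruvate carrier, at -0.34 (limma adjusted p = 0.23 and 0.088). Of 17 genes for writers and erasers of histone lactylation 0 were called by limma (1 at an unadjusted p under 0.05) and the median was 0.03, with the acetyltransferase Ep300 at 0.44 (limma adjusted p = 0.20).

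Glycolysis enzymes had higher values with lactate, without a call. Of 21 tested, 12 had an unadjusted p under 0.05 and were higher, 2 were lower, and the median was 0.40. Pgam1, phosphoglycerate mutase, had 91.3, 60.6, 63.2 and 72.2 FPKM with lactate, against 37.3, 40.9, 53.7 and 44.6 FPKM with PBS (log2 fold change 0.68, 95% interval 0.33 to 1.04, limma adjusted p = 0.071). The groups were apart, and Pgam1 was called without D3 AP+Lac 3 (limma adjusted p = 0.048) or without D3 AP+PBS 3 (0.039). Ldha, the lactate dehydrogenase subunit that favours lactate, had 130, 86.8, 88.5 and 94.2 FPKM with lactate and 58.5, 82.5, 74.0 and 82.5 FPKM with PBS, also apart (0.41, limma adjusted p = 0.24). The list summed to 1177 to 1735 FPKM with lactate and 861 to 1094 FPKM with PBS. The 25 genes of the citrate cycle and itaconate had a median of 0.22 with 0 called by limma and 6 at an unadjusted p under 0.05. In the 22 lists described member by member, voom called 3 endoplasmic reticulum genes, 1 plasma cell marker, 1 NK marker and 0 others.

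**Figure D4:**
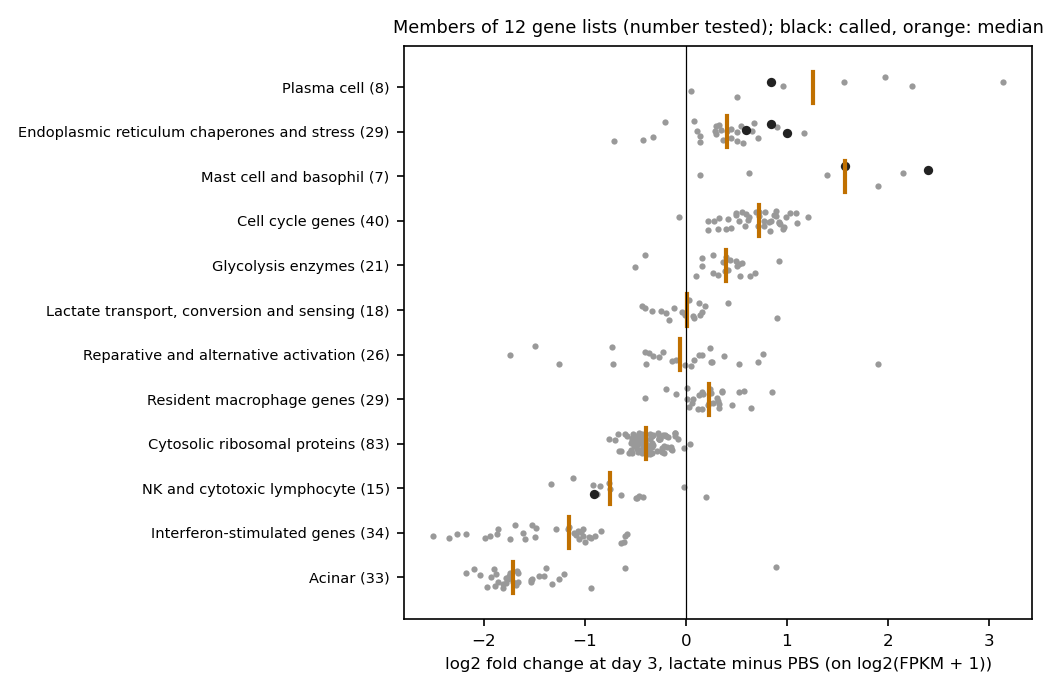
Log2 fold changes at day 3 (lactate minus PBS, on log2(FPKM + 1)) of the tested members of 12 gene lists, with called genes in black and list medians in orange. Medians run between -1.71 for acinar genes and 1.58 for mast cell and basophil genes, and most members of every list are uncalled.

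Cell cycle genes had higher values with lactate, also without a call. Of 40 tested, 0 were called by limma, 20 had an unadjusted p under 0.05, all higher, and 39 lay above 0 with a median of 0.72. Mki67, a marker of cycling cells, had 61.9, 37.1, 24.6 and 60.9 FPKM in D3 AP+Lac, against 16.5, 18.7, 26.8 and 12.7 FPKM in D3 AP+PBS (log2 fold change 1.21, limma adjusted p = 0.15). D3 AP+Lac 3 lay within the PBS range. With the plasma cell covariate the median of the list was -0.30 and 0 were called by limma (5 at an unadjusted p under 0.05), and with the acinar marker covariate it was 1.21 and 16 were called higher.

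Acinar genes were present in every library and lower with lactate in value, not by the test. The 34 acinar genes in the deposited data, 33 of them tested, summed to 888, 4281, 2390 and 7489 FPKM in D3 AP+Lac, against 4014, 30599, 9212 and 8346 FPKM in D3 AP+PBS. The groups overlapped, and D3 AP+PBS 2 was far above the rest. Of the 33 tested, 0 were called by limma, and the median was -1.71. At an unadjusted p under 0.05, 30 were lower and 1 was higher. Bhlha15, a transcription factor of secretory cells, was the only member above 0 (0.89, limma adjusted p = 0.26). The 6 Reg lectins, which acinar cells secrete after injury, summed to 90.9 to 526 FPKM with lactate and 516 to 4576 FPKM with PBS, with a median of -2.02, 0 called by limma and 5 at an unadjusted p under 0.05. Reg1, the member with the smallest p, had 42.8, 206, 148 and 307 FPKM with lactate and 316, 1998, 452 and 601 FPKM with PBS (log2 fold change -2.17, limma adjusted p = 0.080). When acinar markers entered the fit as a covariate, 563 genes passed, 43 of them among the 45. The part of RNA from other cells in the remaining differences was not tested.

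The day 3 result was set beside the same comparison on day 1, which used other libraries, 6 in each group against 4 at day 3. Larger groups make a call easier, so counts of calls are not on a par between the days. On day 1, 1162 genes were called (9.72%), 617 higher (5.16%) and 545 lower (4.56%) with lactate. The difference between the day 3 and day 1 effects passed the test for 1280 genes (10.7%), 569 above 0 (4.76%) and 711 below 0 (5.94%), and for 38 of the 45 called at day 3, a set chosen by the same day 3 libraries. With T and NK markers as a covariate, limma called 0 genes for that difference (2705 at an unadjusted p under 0.05). Of the 45, 14 had the same sign on day 1 and 31 the opposite sign. Tmem150b was called lower at both times (-0.41 at day 3 and -0.48 at day 1). Ifi27l2a, Gm33104, Klra6 and Pon3 were called in opposite directions.

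For Ifi27l2a the log2 fold change was -1.41 at day 3 and 0.82 at day 1, and for Pon3 it was 0.96 and -0.52. Ifi27l2a averaged 211 FPKM with lactate and 547 FPKM with PBS at day 3. The day 1 values of Xbp1, Pdia4 and Edem1 were 0.00, 0.12 and 0.07. Those of Txndc11, Edem2, Fut8, Tmem214, C2cd2l and Ckap4 were -0.10, -0.11, -0.14, -0.19, -0.21 and -0.23, and none of the 9 was called on day 1. For all 9 the difference between days passed the test (largest limma adjusted p = 0.042). The same day 3 libraries had selected these 9 genes, which favours that outcome. The mast cell genes Cpa3 and Fcer1a were at 0.14 and 0.15 on day 1. Of the 34 interferon-stimulated genes 33 were called higher on day 1 with a median of 1.57, against 0 called and a median of -1.16 at day 3. The NK markers had 11 called higher of 15 on day 1 and a median of 1.07, against -0.75 at day 3. Arg1 was at 1.90 on day 3 and -0.27 on day 1, and the difference between days did not pass the test (limma adjusted p = 0.15).

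**Figure D5:**
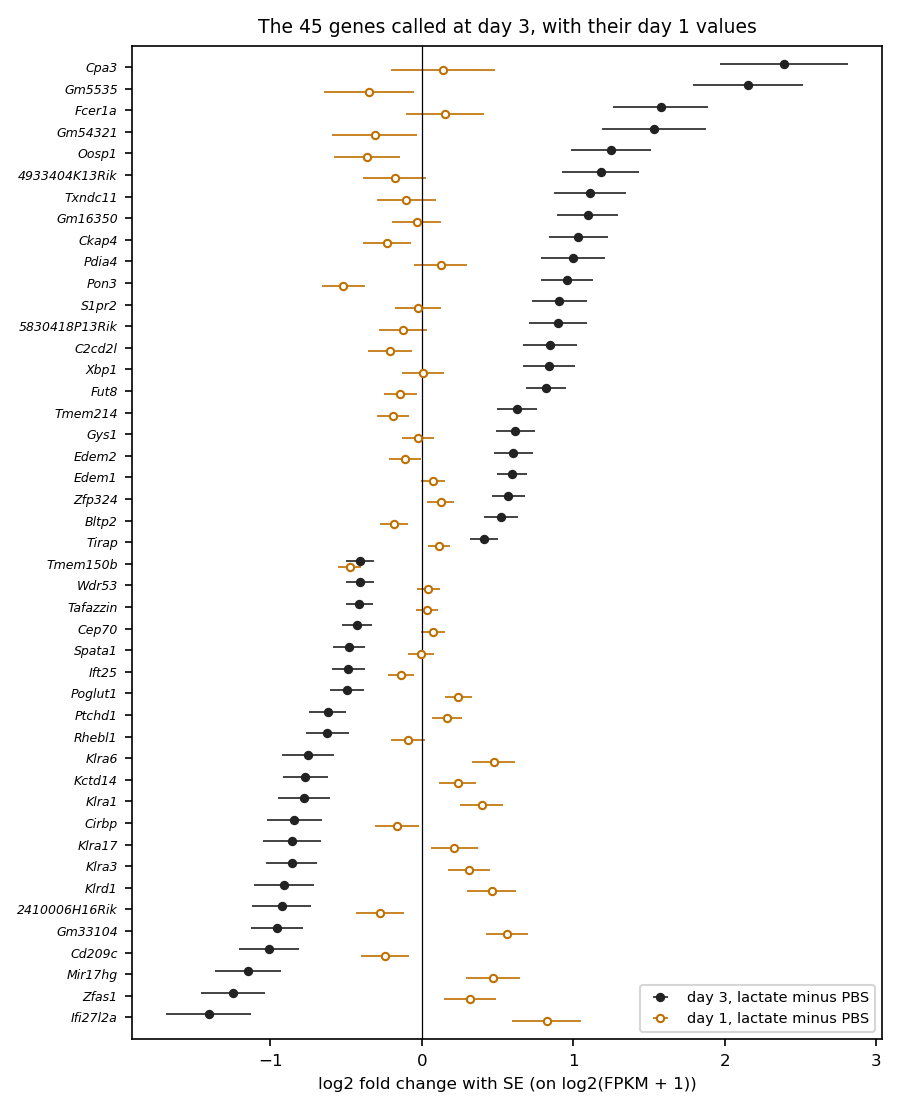
Log2 fold change with SE (on log2(FPKM + 1), lactate minus PBS) of the 45 genes called at day 3, in black, and the value of the same gene on day 1, open orange. Cpa3 heads the plot at 2.39 on day 3 and 0.14 on day 1, and Ifi27l2a ends it at -1.41 on day 3 and 0.82 on day 1.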

How the data were processed

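Total RNA (10 ng per library) from sorted macrophages was made into libraries with a VAHTS kit, per the labels' protocols. The authors deposited a single FPKM table with 25301 genes in rows and 28 libraries in columns, and the unit comes from its name. fastp and R 3.2.0 are named in the submitters' processing notes, and no source used here names the aligner, counter, strand setting, genome build or annotation. Within a gene the values were whole multiples of 1 step, so fragments per library could be recovered (100% of values above 0 whole within 0.0001). FPKM divides by length and total, so a few abundant transcripts lower all other values.

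Genes with at least 1 FPKM in at least 3 libraries were tested (11960). limma 3.58.1 in R 4.3.3 was fitted to log2(FPKM + 1) with 1 mean per group over all 28 libraries, trend and robust moderation, two-sided, with Benjamini-Hochberg adjustment over all genes tested at 0.05. The model was tested on simulated data. Reported p-values are from this fit unless stated. Same-numbered libraries were not treated as pairs. Gene lists (54) were described by counts and medians, without a test. The members and lists were chosen with earlier results of these data known. Genes named were the 12 highest and 12 lowest called genes with a mean of at least 5 FPKM in 1 group (15 higher and 8 lower met this), up to 4 members with the smallest p in each of 22 lists, and a preset group. Any other gene named was chosen after its values were seen. Promoter and microRNA sequences came from RefSeq tables (GRCm38.p6). Promoters were matched by NCBI Gene ID first and otherwise by symbol, and microRNAs by name. Alternatives were another pseudocount, filters, scalings, covariates, voom on the recovered fragments, fits of day 3 alone, replicate blocks and leaving out each library.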

Additional observations from a re-analysis of the deposited data

Results flagged for a closer look

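In 12 of 288 groups of 4 libraries that were examined, 1 library stood far from the other 3 on the log scale (4.17%, where chance gives about 1 in 20). D3 AP+Lac 3 stood apart for Fut8 (11.2 FPKM), Gm16350 (0.647 FPKM) and Smpd1 (9.75 FPKM), low in each. D3 AP+Lac 1 was low for Rps24 (268 FPKM) and Rpl39 (381 FPKM), D3 AP+Lac 2 for Ccl22 (10.3 FPKM) and D3 AP+Lac 4 for Tfe3 (20.5 FPKM). D3 AP+PBS 1 was high for Dpp4 (28.8 FPKM), Klra4 (13.5 FPKM) and Klre1 (10.2 FPKM), D3 AP+PBS 4 for Mcpt4 (4.98 FPKM), and D3 AP+PBS 2 was low for Csf1r (221 FPKM).

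The lactate effect differed between day 3 and day 1 by limma's test of that difference for 1280 genes (10.7%). Among them were 38 of the 45 called genes, which the same day 3 libraries had selected, and 5 of the 30 preset genes tested. The values that follow are day 3 minus day 1 on the log2 scale. Among genes that act in the endoplasmic reticulum or Golgi they were 0.83 for Xbp1, 0.87 for Pdia4, 0.52 for Edem1, 0.72 for Edem2, 1.21 for Txndc11, 1.26 for Ckap4, 0.96 for Fut8, 0.82 for Tmem214 and 1.05 for C2cd2l. The mast cell genes Cpa3 and Fcer1a had 2.25 and 1.43. Above 0 were also Pon3 (1.47), S1pr2 (0.94), Gys1 (0.64), Bltp2 (0.70), Zfp324 (0.45), Oosp1 (1.61), Gm5535 (2.499), Gm54321 (1.85), Gm16350 (1.13), 4933404K13Rik (1.36) and 5830418P13Rik (1.03).

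Below 0 were Ifi27l2a (-2.23), Zfas1 (-1.56), Mir17hg (-1.62), Gm33104 (-1.52), Kctd14 (-1.004), Ptchd1 (-0.79), Poglut1 (-0.74), Cep70 (-0.51), Spata1 (-0.47), Wdr53 (-0.45) and Tafazzin (-0.45). The receptor genes Klrd1, Klra1, Klra3, Klra6 and Klra17 had -1.37, -1.17, -1.17, -1.22 and -1.07. Of the preset genes, Stab1 (1.98), Mrc1 (1.37), Adgre1 (1.22) and Csf1r (1.09) lay above 0, and Ly6c2, a monocyte surface antigen, below it (-3.38), while none of these 5 was called at day 3.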

How the results depend on the processing

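The 45 genes called at day 3 kept their sign in each of the 22 alternatives that tested them, as the filter of 5 FPKM removed some. Of the 45, 0 were called in every alternative (by limma, 0 of them without D3 AP+PBS 1). The number called was 11 with a pseudocount of 0.1, 104 without the filter, 21 with a filter of 5 FPKM in 4 libraries, 213 with quantile normalization (130 higher and 83 lower), 77 with median-ratio scaling (47 higher and 30 lower), 57 with acinar and Reg genes removed (23 higher and 34 lower), 24 with voom, and 563, 624 and 37 with an acinar, a plasma cell or a T and NK covariate. The plasma cell covariate (144 higher and 480 lower) was added after the data were seen. With the day 3 libraries alone 8 were called, none of them among the 45. Same-numbered libraries did not deviate together (r = 0.0992, 0.276, -0.534 and -0.391 for numbers 1 to 4), so numbers did not pair them. A replicate block gave 39 calls over all libraries (32 shared) and 4 in day 3 alone (0 shared). Leaving out single libraries gave 0 to 163 calls, and for the difference between days 622 to 1380. That difference had 0 calls with the T and NK covariate by limma (2705 at an unadjusted p under 0.05) and 2558 with the plasma cell covariate. The causes were not tested. Of 99 other named genes, 83 kept their sign.

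Some uncalled genes changed sign, with the log2 fold changes below. Not all of them were near 0, as Ly6c2 was at -1.28 and Spp1 at -0.51 in the main fit. With the T and NK marker covariate, Ccr2 -0.014, Trem2 -0.25, Mertk -0.19, Cd163 -0.17. With acinar and Reg genes removed, Il1b -0.031, Timd4 -0.017. With the acinar marker covariate, Timd4 -0.085, Ccr2 -0.19, Mertk -0.17. With median-ratio scaling, Il1b -0.011. With the plasma cell covariate, Chil3 0.55, Il1b -0.62, Slc16a1 -0.69, Timd4 -0.20, Ly6c2 0.28, H2-Aa -0.30, Cd74 -0.13, Spp1 0.68, Gpnmb 0.65, Vegfa -0.31, Igf1 -0.043, Cd163 -0.073. With a pseudocount of 0.1, Il1b -0.00023. With quantile normalization, Timd4 -0.017. Without single libraries the ranges were Ccr2 -0.032 to 0.29, Cd163 -0.028 to 0.36, Chil3 -0.36 to 0.29, Gpnmb -0.30 to 0.046, H2-Aa -0.025 to 0.19, Igf1 -0.0035 to 0.55, Il10 -0.013 to 0.56, Il1b -0.17 to 0.31, Mertk -0.18 to 0.26, Slc16a1 -0.0091 to 0.34, Timd4 -0.16 to 0.18, Trem2 -0.15 to 0.40, Vegfa -0.029 to 0.32.

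With 4 libraries a group, exact tests cannot go below 0.0286. Low genes and shared copies limit single values.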

Other observations

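Genes of dendritic cells, which lie close to macrophages in a sort, held 0 called of 16 tested by limma, with 6 lower and 1 higher at an unadjusted p under 0.05 and a median log2 fold change of -0.16. Fscn1, the actin-bundling protein of migrating dendritic cells, had 64.1, 26.5, 34.0 and 56.2 FPKM in D3 AP+Lac, against 139, 131, 150.03 and 73.9 FPKM in D3 AP+PBS (-1.47, limma adjusted p = 0.14). Cd209a, a lectin of monocyte-derived dendritic cells, had 28.1, 28.1, 66.7 and 40.7 FPKM with lactate and 87.8, 114, 74.4 and 128 FPKM with PBS (-1.34, limma adjusted p = 0.087). Dpp4, a surface peptidase, was at -0.72 (limma adjusted p = 0.12). The groups did not overlap for these 3 genes, which are among the members with the smallest p. Of the 16 members, 6 lay above 0 and 10 below. The mean level of the list overlapped, at 4.61 to 5.13 with lactate and 4.93 to 5.385 with PBS on log2(FPKM + 1). The 9 plasmacytoid dendritic cell markers summed to 146 to 283 FPKM with lactate and 347 to 545 FPKM with PBS, with 0 called by limma and 3 at an unadjusted p under 0.05. Bst2, which is also in the interferon-stimulated list, held 119, 126, 251 and 102 FPKM of these sums with lactate. With PBS it held 365, 230, 237 and 395 FPKM, so the sums are not a measure of these cells alone.

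MHC class II presentation genes overlapped between the groups. Its 11 genes had a median of 0.04, 0 called by limma and 1 at an unadjusted p under 0.05, and they summed to 15315 to 20110 FPKM with lactate and 12700 to 19023 FPKM with PBS. H2-Aa, a class II chain, averaged 3551 ± 588 and 3368 ± 686 FPKM, and Cd74, the invariant chain, 6168 ± 927 and 5341 ± 992 FPKM (SD, n = 4 each). Their limma adjusted p were 0.87 and 0.59.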
